A study of Bos taurus with 27 samples.

Results

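A set of 10 genes of IL-10, regulatory T cells and inhibitory receptors was followed in lymph nodes of cattle at baseline and during tick feeding. They were IL10, IL10RA, FOXP3, CTLA4, IL2RA, HAVCR2, LAG3, TIGIT, PDCD1 and PDCD1LG2. A probe belonged to a gene when its symbol, or the current RefSeq symbol of that gene, was 1 of these 10. All 10 were measured, by 19 probes, among 14495 named genes on the array. IL10RA and IL2RA had 3 probes each, LAG3, TIGIT and PDCD1LG2 had 1 each, and the other 5 genes had 2 each. The probes of a gene were averaged.

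IL-10 is a cytokine made by regulatory T cells, macrophages and other leukocytes, and it acts through a receptor whose ligand-binding chain is encoded by IL10RA. It restrains antigen presentation and the release of inflammatory cytokines. FOXP3 is the transcription factor that defines regulatory T cells in mouse and human, and these cells carry much CTLA-4 and the high-affinity chain of the interleukin-2 receptor, encoded by IL2RA. TIM-3 (HAVCR2), LAG-3, TIGIT and PD-1 (PDCD1) are inhibitory receptors that T cells bear after activation or under persistent antigen, and PDCD1LG2 encodes PD-L2, a ligand of PD-1 on antigen-presenting cells. In a draining lymph node these molecules set how strongly T cells respond, and TIM-3 is also made by macrophages and dendritic cells.

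The samples were biopsies of the superficial cervical lymph node, which drains the neck and shoulder. They came from Bonsmara, Brahman and Holstein Friesian cattle at 3 stages, with 3 arrays in each of the 9 groups. At baseline no ticks were attached, at the larva stage larvae of the cattle tick Rhipicephalus microplus fed, and at the adult stage adult ticks fed. Each array set the RNA of 1 sample (Cy5) against the same pool of cattle superficial cervical lymph nodes (Cy3). Bonsmara is a composite breed developed in South Africa, Brahman a zebu breed and Holstein Friesian a taurine dairy breed. The labels call the replicates biological and give neither ages nor whether the stages of a breed came from the same animals. With 0 arrays from uninfested cattle at the later times, time and tick feeding cannot be told apart.

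All values are log2 ratios to the pool, likely sample over pool, on which a difference of 1 is a doubling. The file states neither the base nor the direction, and the opposite direction would turn every sign below. A ratio does not show how abundant a transcript is, so levels were not compared between genes, and the labelled tissue could not be checked against absolute marker levels. These are bulk samples, in which fewer cells of a type and less RNA per cell cannot be told apart. Differences were tested with limma on all 27 arrays, with Benjamini-Hochberg adjustment over 28927 features (named genes and unnamed probes). "Rose" and "fell" mean an adjusted p under 0.05, and errors are the standard error (SE) of the fit or the SD of 3 arrays. Where groups of 3 arrays are said not to overlap in 1 comparison, the share of all features doing so was not counted. That wording is description only.

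Over the 50 features that best separated the breeds on the other arrays, 2 arrays lay nearer another breed than their own, by root mean square difference in log2 units. The array labelled Bonsmara larva 3 lay nearer Holstein Friesian, at a distance of 0.60 against 1.01 from Bonsmara. The array labelled Holstein Friesian larva 3 lay nearer Brahman, at 0.37 against 1.29 from Holstein Friesian, and its mean correlation with its own group was -0.085. Both enter the larva values, so the main larva results are also given without them.

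**Figure D1:**
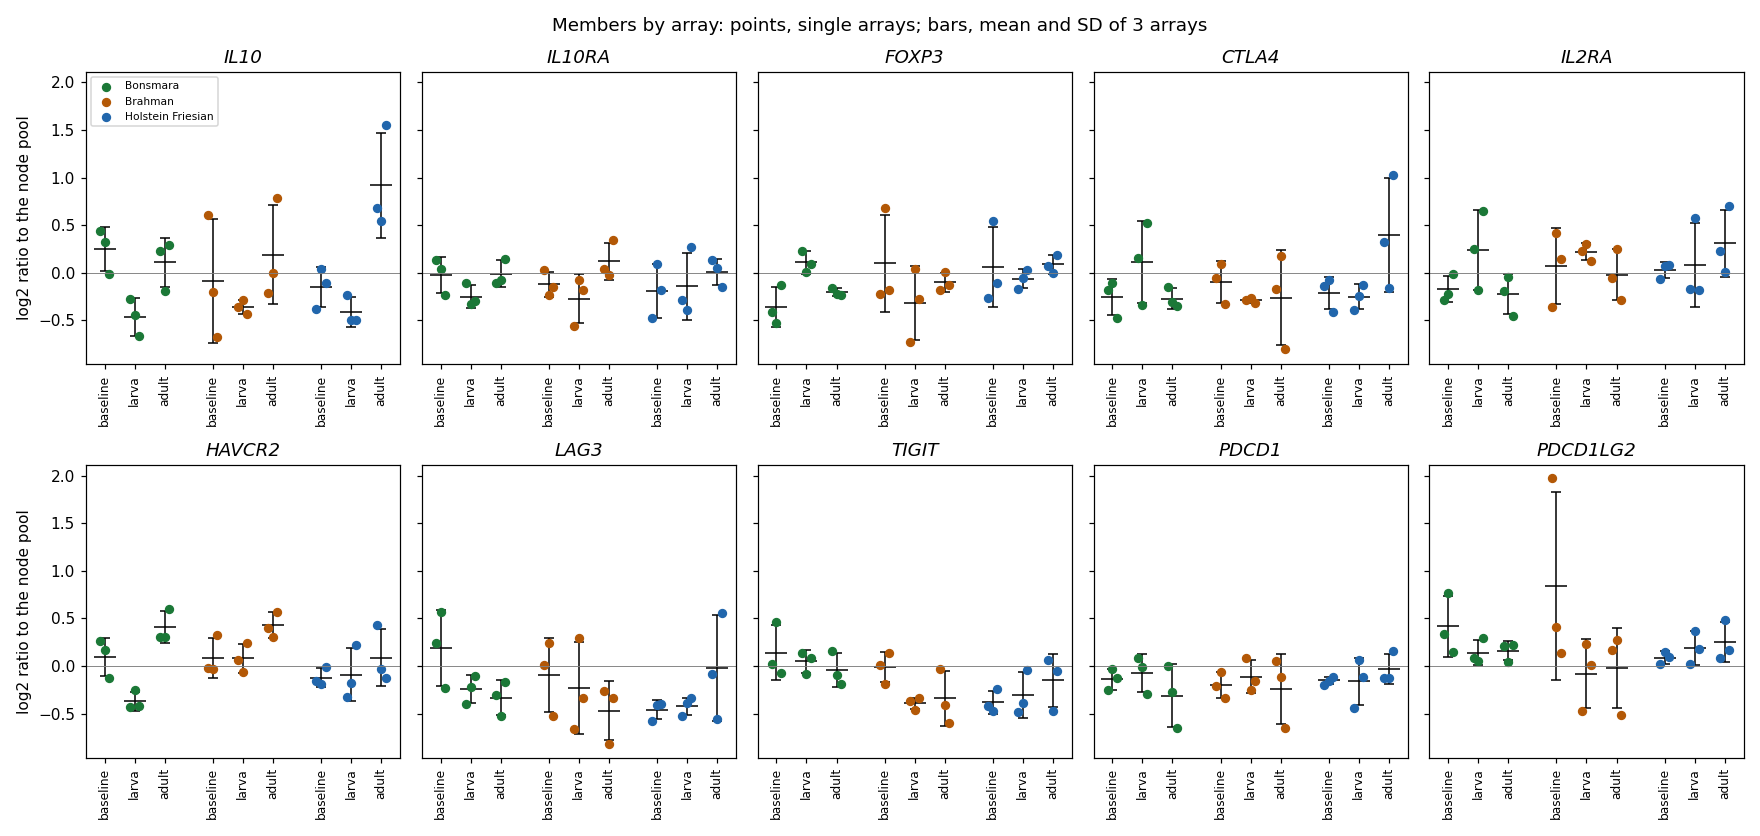
Log2 ratio to the lymph node pool (vertical axis) of each of the 10 genes on every array, by breed (colour) and stage (horizontal axis); points are arrays, and bars are the mean and SD of 3 arrays. IL10 lies below 0 on all 9 larva arrays and reaches 1.55 in Holstein Friesian adult 3, and PDCD1LG2 reaches 1.97 in Brahman baseline 1.

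IL10 and HAVCR2 rose between the larva and the adult stage, taken as the mean over the 3 breeds, and the other 8 genes did not pass the test. IL10 rose by 0.82 ± 0.16 (SE; adjusted p = 0.045 by limma), from a mean of -0.41 to 0.41. HAVCR2 rose by 0.43 ± 0.09 (SE; adjusted p = 0.0488 by limma), from -0.13 to 0.31. Both means were higher at the adult stage in 3 of 3 breeds, though the HAVCR2 difference in Holstein Friesian was 0.18 with all arrays and 0.01 without adult 1 of that breed. That is 2 of 10 members called, both higher, where 67 of 28927 features (0.232%) were called in all and 49 (0.169%) were higher. The 10 members were chosen with earlier results of these data known, so these shares are no test of the set. The median difference was 0.04 over the 10 genes and -0.004 over all features.

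Both calls lie close to the threshold. With the replicate number of each breed fitted as a block, neither passed (adjusted p = 0.0805 for IL10 and 0.0779 for HAVCR2 by limma). After group means were taken off, 19 of 27 arrays correlated best with arrays of their breed that shared their number. Unrelated numbers would give about 1 in 3, as each array had 3 numbers to match. No label says that numbers pair animals, so whether they do is unknown. With 1 array left out at a time, the IL10 difference stayed between 0.71 and 0.88 and that of HAVCR2 between 0.38 and 0.49. The IL10 call was kept in 7 of 27 such fits, those without Brahman baseline 1, 2 or 3, Brahman adult 1, Holstein Friesian larva 3, or Holstein Friesian adult 2 or 3. In the other 20 the adjusted p ran from 0.0503 to 0.112, highest without Bonsmara adult 3. The HAVCR2 call was kept in 4 fits, those without Brahman baseline 3, Brahman adult 1, Holstein Friesian larva 3 or Holstein Friesian adult 3, and in the other 23 the adjusted p ran from 0.0502 to 0.134. Without both arrays that stood apart, IL10 differed by 0.77 (adjusted p = 0.0744 by limma) and HAVCR2 by 0.48 (adjusted p = 0.0476).

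**Figure D2:**
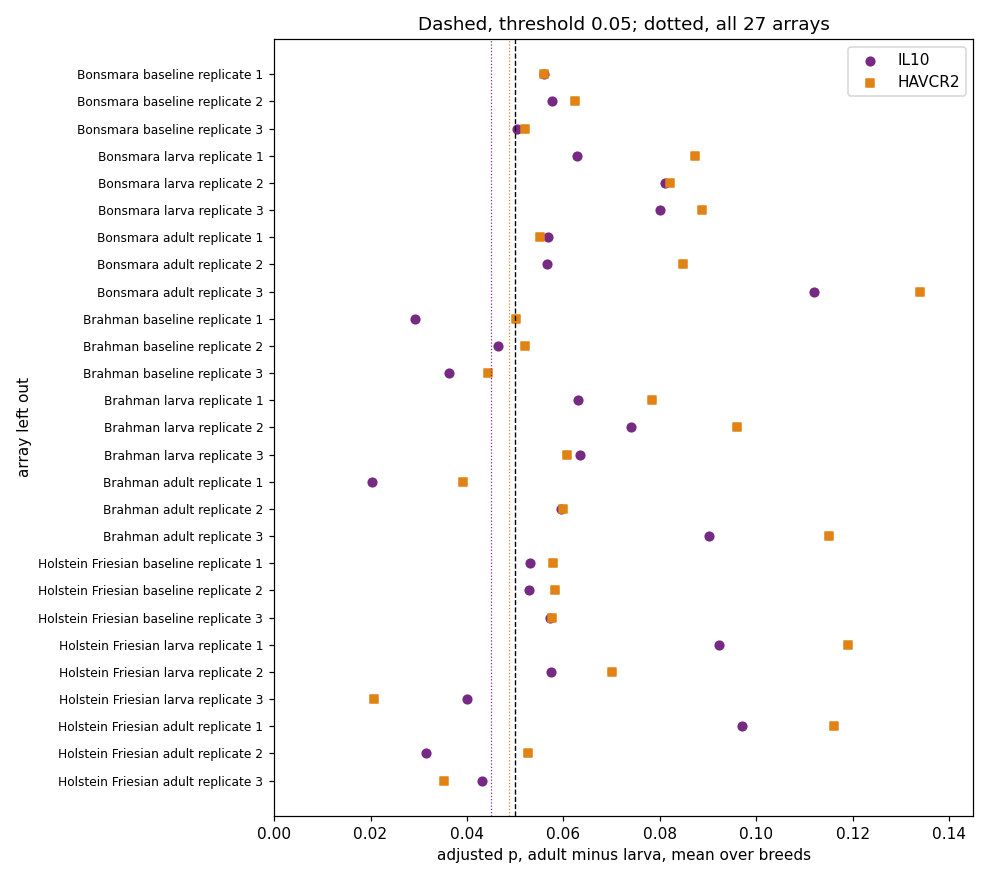
Adjusted p of IL10 and HAVCR2 for adult minus larva as the mean over breeds (horizontal axis), with 1 array left out at a time (vertical axis). The dashed line is the threshold of 0.05 and the dotted lines are the values with all 27 arrays, 0.045 and 0.0488; IL10 stays under the threshold in 7 of 27 fits and HAVCR2 in 4.

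IL10, the cytokine itself, was low on every larva array. In Bonsmara its ratios were 0.44, 0.32 and -0.01 at baseline, -0.27, -0.44 and -0.66 with larvae, and 0.23, -0.19 and 0.29 with adults. In Brahman they were 0.61, -0.20 and -0.67 at baseline, -0.36, -0.29 and -0.43 with larvae, and -0.21, 0.00 and 0.79 with adults. In Holstein Friesian they were -0.38, 0.04 and -0.11 at baseline, -0.23, -0.50 and -0.50 with larvae, and 0.68, 0.54 and 1.55 with adults. Within each breed, every adult array lay above every larva array by the mean of the 2 probes. IL10 was the only member with this pattern, which 28 of 28927 features (0.0968%) showed. By the first probe alone the pattern held, and by the second it did not. There Bonsmara adult 2 at -0.32 lay below larva 1 at -0.28, and Brahman adult 1 at -0.24 below larva 2 at -0.06.

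Within single breeds the IL10 difference did not pass the test. Adult minus larva was 0.57 ± 0.28 (SE) in Bonsmara (adjusted p = 0.546 by limma), 0.56 ± 0.28 in Brahman (adjusted p = 0.645) and 1.33 ± 0.28 in Holstein Friesian (adjusted p = 0.331). The last had a 95% interval of 0.75 to 1.92 and was 1.02 without Holstein Friesian adult 3, the highest of all 27 arrays. The Brahman difference was 0.26 without Brahman adult 3. Without both arrays that stood apart, the difference was 0.46 in Bonsmara and 1.29 in Holstein Friesian. The share of features called in these comparisons was 0.0484% in Bonsmara, 0.00346% in Brahman and 0.00346% in Holstein Friesian, and 0 of 10 members were called in each. Holstein Friesian adult was the highest of the 9 groups, at 0.92 ± 0.55 (SD, n = 3), followed by Bonsmara baseline at 0.25 ± 0.23 (SD, n = 3). That gap of 0.68 exceeded the residual SD of 0.37, and the 7 other gaps between neighbouring groups did not. Holstein Friesian adult 1, 2 and 3 read 0.68, 0.54 and 1.55, so the size of this gap rests largely on adult 3. The lowest 3 groups were the larva groups, with Bonsmara larva at -0.46 ± 0.20 (SD, n = 3).

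Against baseline IL10 pointed down with larvae and up with adults, and neither difference passed. Larva minus baseline was -0.41 ± 0.16 (SE; adjusted p = 0.282 by limma) as the mean over breeds, and -0.70 ± 0.28 in Bonsmara, where the groups did not overlap (adjusted p = 0.223). Without the arrays that stood apart these were -0.36 and -0.60. Adult minus baseline was 0.41 ± 0.16 (adjusted p = 0.35) as the mean over breeds. In Holstein Friesian it was 1.07 ± 0.28 (adjusted p = 0.681), with all adult arrays above all baseline arrays, and 0.76 without adult 3. The 2 IL10 probes correlated at r = 0.732 over the 27 arrays, and adult minus larva was 0.86 by 1 and 0.77 by the other. Adult minus baseline was 0.50 and 0.31 over the breeds, and 0.51 and 0.05 in Brahman. On Brahman baseline 1 the probes read -0.17 and 1.38, so the mean of 0.61 joins opposite signs.

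IL10RA, the ligand-binding receptor chain, varied little. Its 27 ratios ran from -0.56 to 0.34 with a median of -0.11, and the group means from -0.27 in Brahman larva to 0.12 in Brahman adult. All 8 gaps between neighbouring groups were under its residual SD of 0.22. The 3 adult groups were the highest 3. Adult minus larva was 0.26 ± 0.10 as the mean over breeds (SE; unadjusted p = 0.0163, adjusted p = 0.332 by limma), the third smallest p of the 10 members. In Brahman it was 0.39 ± 0.17 (adjusted p = 0.578), with ratios of -0.56, -0.07 and -0.18 with larvae and 0.04, -0.02 and 0.34 with adults, which do not overlap. Without Brahman larva 1 the difference was 0.24. Its 3 probes differed by 0.21, 0.23 and 0.34 in adult minus larva over the breeds.

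HAVCR2 encodes TIM-3. In Bonsmara its ratios were 0.26, 0.17 and -0.13 at baseline, -0.43, -0.25 and -0.42 with larvae, and 0.31, 0.31 and 0.60 with adults. In Brahman they were -0.02, -0.03 and 0.33 at baseline, 0.06, -0.06 and 0.24 with larvae, and 0.40, 0.31 and 0.57 with adults. In Holstein Friesian they were -0.16, -0.19 and -0.01 at baseline, -0.32, -0.18 and 0.22 with larvae, and 0.43, -0.03 and -0.13 with adults. Larva and adult arrays did not overlap in Bonsmara and Brahman and did overlap in Holstein Friesian, where larva 3, an array that stood apart, was the highest larva value.

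By breed, adult minus larva for HAVCR2 was 0.77 ± 0.16 (SE) in Bonsmara (adjusted p = 0.0769 by limma), 0.35 ± 0.16 in Brahman (adjusted p = 0.588) and 0.18 ± 0.16 in Holstein Friesian (adjusted p = 1.0). Without both arrays that stood apart it was 0.75 in Bonsmara and 0.34 in Holstein Friesian, and without Holstein Friesian adult 1 it was 0.01 in Holstein Friesian. The Bonsmara difference exceeded that of Holstein Friesian by 0.59 ± 0.22 (unadjusted p = 0.0144, adjusted p = 0.706), or 0.41 without the arrays that stood apart, so the breeds were not shown to differ. Brahman adult at 0.43 ± 0.14 and Bonsmara adult at 0.41 ± 0.17 (SD, n = 3) were the highest groups, 0.31 above Bonsmara baseline, and Bonsmara larva at -0.37 ± 0.10 was the lowest. HAVCR2 had the smallest residual SD of the members, 0.19. Its 2 probes correlated at r = 0.678 and gave 0.39 and 0.48 for adult minus larva. In Bonsmara these probes gave 0.56 and 0.99. Larva minus baseline was -0.47 ± 0.16 in Bonsmara (adjusted p = 0.151), and adult minus baseline was 0.28 ± 0.09 as the mean over breeds (adjusted p = 0.264).

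**Figure D3:**
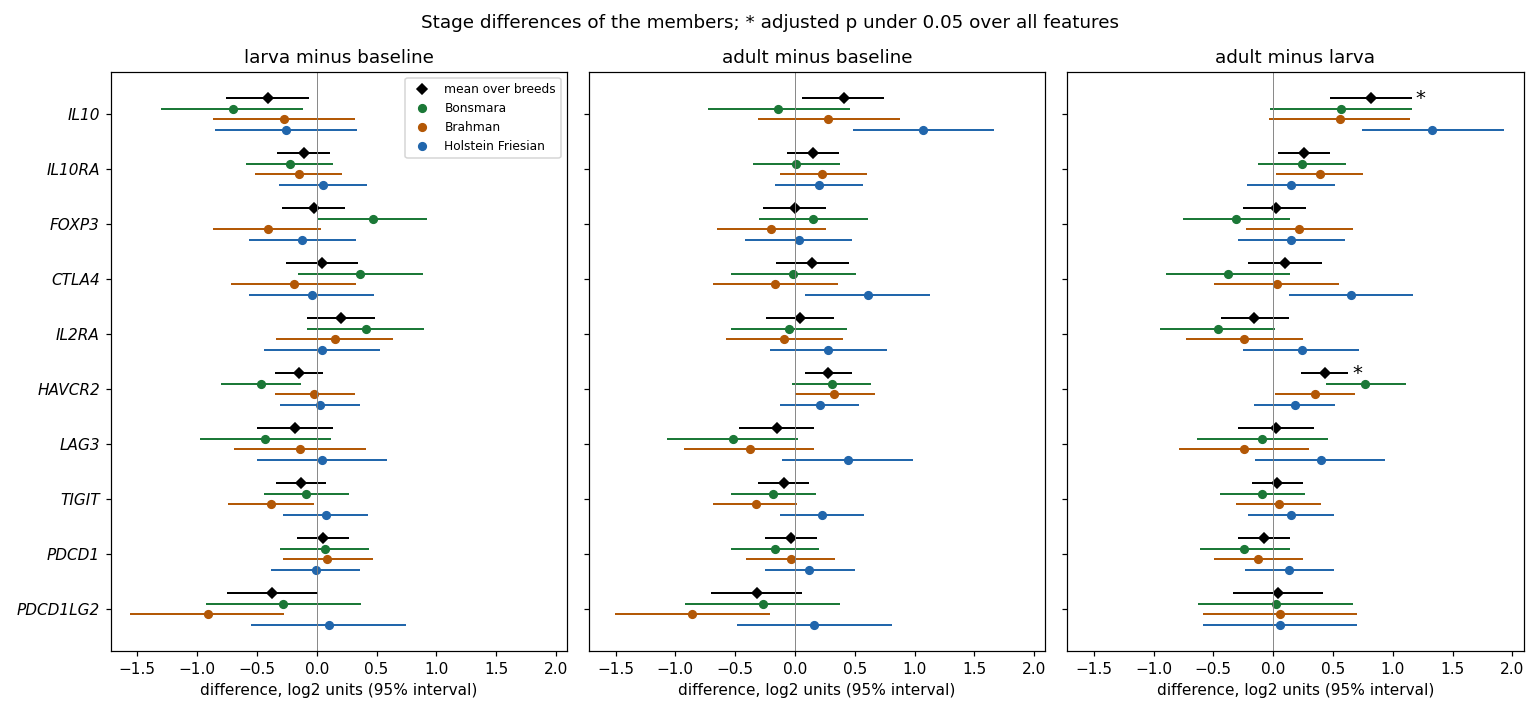
Differences between stages in log2 units (horizontal axis) for each gene, by breed (coloured points) and as the mean over breeds (black diamonds), with 95% intervals; a star marks an adjusted p under 0.05. Stars stand at IL10 (0.82) and HAVCR2 (0.43) in adult minus larva as the mean over breeds and nowhere else.

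FOXP3, the regulatory T cell factor, was not called in any comparison of stages. Adult minus larva was 0.02 ± 0.12 (SE) and the 95% interval ran from -0.24 to 0.27 (adjusted p = 0.99 by limma). In Bonsmara the ratios were -0.41, -0.53 and -0.13 at baseline, 0.23, 0.01 and 0.09 with larvae, and -0.16, -0.22 and -0.23 with adults. Larva arrays lay above all baseline and all adult arrays there, with a larva minus baseline difference of 0.47 ± 0.21 (adjusted p = 0.287), or 0.48 without the arrays that stood apart. In each of these comparisons 3 of 10 members had no overlap, but the share of all features was not counted, so nothing is drawn from this count. At an unadjusted p under 0.05 by limma, 15.7% of all features differed between larva and baseline in Bonsmara and 9.48% between adult and larva. In Brahman the ratios were -0.22, 0.68 and -0.18 at baseline, -0.73, 0.04 and -0.27 with larvae, and -0.18, 0.01 and -0.13 with adults, so these groups overlapped. Larva minus baseline was -0.41 ± 0.21 in Brahman (adjusted p = 0.553), but -0.12 without Brahman baseline 2 and -0.21 without Brahman larva 1. The larva response of Brahman was below that of Bonsmara by -0.88 ± 0.30 (unadjusted p = 0.00787, adjusted p = 0.415), and without the arrays that stood apart it was -0.89 (adjusted p = 0.381). It was -0.59 without Brahman baseline 2 and -0.68 without Brahman larva 1. In Holstein Friesian the 9 ratios ran from -0.26 to 0.54, and group means from -0.06 to 0.09. The 2 FOXP3 probes gave 0.14 and -0.10 for adult minus larva over the breeds.

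CTLA4 and IL2RA had their highest group mean in Holstein Friesian adult, where 1 array, adult 3, was the highest of all. CTLA4, which competes with CD28 for its ligands, had ratios of -0.14, -0.08 and -0.41 at baseline, -0.39, -0.24 and -0.13 with larvae and 0.32, -0.16 and 1.03 with adults in that breed. Adult 3 lay above every other array, and adult 2 lay among the larva arrays. Adult minus larva was 0.65 ± 0.25 (SE; unadjusted p = 0.0155, adjusted p = 0.963 by limma) and was 0.33 without adult 3. In Bonsmara the larva ratios of CTLA4 were 0.16, -0.34 and 0.52, the highest being larva 3, an array that stood apart. There larva minus baseline was 0.36 with all arrays and 0.16 without it and Holstein Friesian larva 3. CTLA4 also had the smallest p of the members in the interaction of breed and stage (F = 2.83, unadjusted p = 0.0492, adjusted p = 0.707), where 0% of features were called.

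IL2RA, the alpha chain of the interleukin-2 receptor, had ratios of 0.23, 0.01 and 0.70 in Holstein Friesian adult, where adult 3 was again the highest of the 27 arrays. Its Bonsmara ratios were -0.29, -0.22 and -0.01 at baseline, 0.25, -0.18 and 0.65 with larvae, and -0.19, -0.04 and -0.45 with adults. The larva arrays overlapped both other stages. Adult minus larva was -0.46 ± 0.23 (SE) in Bonsmara, -0.24 ± 0.23 in Brahman and 0.24 ± 0.23 in Holstein Friesian, and -0.16 ± 0.13 as the mean over breeds (adjusted p = 0.789 by limma). The Bonsmara value was -0.26 and the Holstein Friesian value 0.11 without the arrays that stood apart, and the Holstein Friesian value was 0.04 without adult 3. In larva minus baseline for Bonsmara, IL2RA differed by 0.41 with all arrays and by 0.21 without the 2 that stood apart.

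LAG3, an inhibitory receptor that binds MHC class II, was highest in Bonsmara baseline, at 0.24, 0.57 and -0.23. Its Brahman adult ratios were -0.26, -0.82 and -0.34, the lowest group mean at -0.47 ± 0.31 (SD, n = 3). In Holstein Friesian it was -0.58, -0.41 and -0.40 at baseline, -0.52, -0.39 and -0.34 with larvae, and -0.08, -0.55 and 0.56 with adults, so the adult arrays spread from below most of the other arrays of the breed to above all of them. Bonsmara minus Holstein Friesian at baseline was 0.65 ± 0.26 (SE), with no overlap of the arrays (adjusted p = 0.376 by limma). That difference was 0.47 without Bonsmara baseline 2, the highest of all arrays, and 0.87 without Bonsmara baseline 3. Adult minus larva as the mean over breeds was 0.02 ± 0.15 (adjusted p = 0.99).

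TIGIT, a receptor for the poliovirus receptor on antigen-presenting cells, had ratios of 0.02, 0.46 and -0.07 in Bonsmara baseline, 0.01, -0.19 and 0.14 in Brahman baseline and -0.42, -0.47 and -0.24 in Holstein Friesian baseline. The Holstein Friesian arrays lay below all others at baseline. The difference was 0.52 ± 0.17 (SE) for Bonsmara (adjusted p = 0.281 by limma) and 0.37 ± 0.17 for Brahman (adjusted p = 0.461). For Bonsmara it was 0.35 without Bonsmara baseline 2, the highest of all arrays. In Brahman the larva arrays, at -0.37, -0.46 and -0.34, lay below all baseline arrays (difference -0.38 ± 0.17, adjusted p = 0.485). Over the breeds, adult minus larva was 0.03 ± 0.10.

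PDCD1, which encodes PD-1, was the flattest member: its 9 group means spanned 0.28, from -0.31 in Bonsmara adult to -0.03 in Holstein Friesian adult, and its arrays ran from -0.65 to 0.16. Its 2 probes correlated at r = 0.163, so their mean is uncertain, and for adult minus larva over the breeds they gave 0.03 and -0.18. The difference of their mean was -0.08 ± 0.10 (SE; adjusted p = 0.901 by limma). The ligand gene PDCD1LG2 had ratios of 1.97, 0.41 and 0.14 in Brahman baseline and -0.47, 0.23 and 0.01 in Brahman larva. Brahman baseline 1 was the highest of the 27 arrays, and the next was Bonsmara baseline 2 at 0.77. Larva minus baseline in Brahman was -0.91 ± 0.31 (adjusted p = 0.411) and was -0.35 without that array. Adult minus baseline was -0.86 ± 0.31 (adjusted p = 0.328) and was -0.30 without it. PDCD1LG2 had the largest residual SD of the members, 0.41, where the median was 0.29 over the members and 0.20 over all features.

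No member passed the test between baseline and either infested stage. As the mean over breeds, 1.21% of features were called in larva minus baseline and 0.0346% in adult minus baseline, with 0 of 10 members in each. The members' medians were -0.12 and 0.02, where all features had -0.019 and -0.021. By breed, larva minus baseline called 1.11% of features in Bonsmara, 0% in Brahman and 0.00346% in Holstein Friesian, and adult minus baseline called 0.0311%, 0% and 0%, with 0 of 10 members in each. At an unadjusted p under 0.05, 3 of 10 members differed in Bonsmara larva minus baseline (IL10, FOXP3 and HAVCR2), where 15.7% of features did. Without the arrays that stood apart their unadjusted p was 0.0791, 0.0685 and 0.0157 by limma. In Holstein Friesian the adult means of all 10 members lay above both the larva and the baseline means, with medians of 0.17 and 0.22 and 0 members called; over all features the medians were -0.0 and -0.006. Without adult 3, 10 of 10 members lay above larva and 9 of 10 above baseline, with medians of 0.10 and 0.18, the exception being FOXP3 at -0.023.

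Between breeds 0 of 10 members were called at any stage by limma. At baseline 0.152% of features were called for Brahman minus Bonsmara, 0.0207% for Brahman minus Holstein Friesian and 0.225% for Bonsmara minus Holstein Friesian. With larvae 0% were called in all 3 pairs, and with adults 0%, 0% and 0.00346% in the same order. At an unadjusted p under 0.05, 3 of 10 members differed in Bonsmara minus Holstein Friesian with adults, where 6.71% of features did. These were IL10 at -0.81 ± 0.28 (SE; adjusted p = 0.526), CTLA4 at -0.66 ± 0.25 (adjusted p = 0.582) and IL2RA at -0.53 ± 0.23 (adjusted p = 0.68). Without Holstein Friesian adult 3 they were -0.50, -0.35 and -0.34, and none kept that level (unadjusted p = 0.092, 0.158 and 0.179 by limma). In Brahman minus Holstein Friesian with adults 3 of 10 members also differed at that level, where 10.1% of features did. There IL10 stood at -0.73 and CTLA4 at -0.66. Without Holstein Friesian adult 3 they were -0.42 and -0.34 (unadjusted p = 0.157 and 0.163 by limma). HAVCR2 stood at 0.34, or 0.51 without Holstein Friesian adult 1. When the stage differences themselves were compared between breeds, 0.00691% of features were called for larva minus baseline between Bonsmara and Holstein Friesian and 0% in the other 8 comparisons, with 0 of 10 members in each. IL10 had an adult minus baseline difference smaller in Bonsmara than in Holstein Friesian by -1.21 ± 0.40 (unadjusted p = 0.0059, adjusted p = 0.565), and by -0.90 without Holstein Friesian adult 3. At an unadjusted p under 0.05 the largest count of members, 4 of 10, was in adult minus baseline between Brahman and Holstein Friesian, where 5.43% of features differed. These were CTLA4 (-0.77), LAG3 (-0.82), TIGIT (-0.56) and PDCD1LG2 (-1.02), each lower in Brahman with an adjusted p of 0.864. Without Holstein Friesian adult 3 the first 3 were -0.46, -0.53 and -0.51 (unadjusted p = 0.167, 0.141 and 0.06 by limma). PDCD1LG2 was -0.45 without Brahman baseline 1 (unadjusted p = 0.139). With these arrays left out, none of the 4 kept the unadjusted level of 0.05.

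As the mean over breeds, some macrophage and cytotoxic cell markers also rose between the larva and the adult stage. Of 14 macrophage and monocyte genes, 5 rose and all 14 were positive, with a median of 0.57 against -0.004 over all features. MRC1, the mannose receptor, rose by 1.48 (adjusted p = 0.0118 by limma), CD163, the haemoglobin scavenger receptor, by 1.12 (adjusted p = 0.045), C1QB, a complement subunit, by 0.85 (adjusted p = 0.0398) and MERTK, a receptor for dying cells, by 0.41 (adjusted p = 0.0323). The median ratio of this list ran from -0.75 to -0.14 over the larva arrays and from -0.15 to 0.75 over the adult arrays. In each breed all adult arrays lay above all larva arrays in this list median. By breed the median difference of the list was 0.68 in Bonsmara, 0.70 in Brahman and 0.26 in Holstein Friesian. In the same order IL10 differed by 0.57, 0.56 and 1.33 and HAVCR2 by 0.77, 0.35 and 0.18. Of 15 cytotoxic and NK cell genes, 2 rose, KLRK1 by 0.69 and EOMES by 0.68 (adjusted p = 0.045 for both), with a median of 0.36. That list ran from -0.90 to -0.03 over the larva arrays and from -0.70 to 0.41 over the adult arrays. Its median difference was 0.61 in Bonsmara, 0.28 in Brahman and 0.28 in Holstein Friesian. The part of these cell types in the differences of IL10 and HAVCR2 was not tested. These lists, too, were chosen with earlier results of these data known. Without the arrays that stood apart, 3 of 14 macrophage genes and 0 of 15 cytotoxic genes rose, with medians of 0.57 and 0.38.

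**Figure D4:**
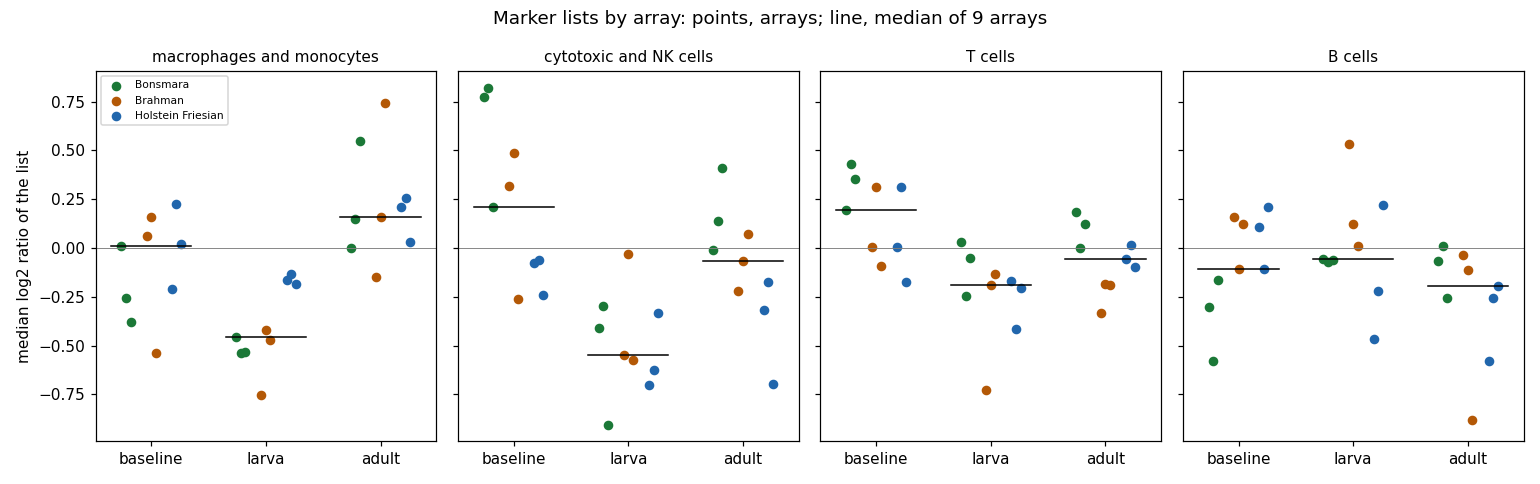
Median log2 ratio of 4 marker lists (vertical axis) on each array, by stage (horizontal axis) and breed (colour); lines are the median of the 9 arrays of a stage. Macrophage and monocyte genes lie between -0.75 and -0.14 with larvae and between -0.15 and 0.75 with adults, and the T cell list lies between -0.73 and 0.03 with larvae.

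Markers of the other cell types gave 1 call between larva and adult. Of 15 T cell genes 0 passed (median 0.13; CD3G differed by 0.33, adjusted p = 0.159 by limma, and CD3E by 0.27, adjusted p = 0.264). Of 9 B cell genes 0 passed (median -0.21; CD79A -0.52, adjusted p = 0.105, and SPIB -0.48, adjusted p = 0.244). Of 12 dendritic cell genes 0 passed (median 0.06; CD1E 0.22 and CADM1 0.26), and of 12 genes of skin, fat, muscle and blood 0 passed (HBB 0.22 and CKM 0.17). Of 13 genes of the node's stroma 1 fell, the chemokine CCL19 by -0.59 (adjusted p = 0.0451), with 0 falling once the arrays that stood apart were left out.

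The wider pathways around the members showed few calls in adult minus larva over the breeds. In IL-10 signalling and IL-10 producers, 1 of 21 genes rose, with a median of 0.08. That gene was CD163, which the macrophage list also holds. Of 28 other regulatory T cell genes 0 passed, with a median of -0.01. Among them the semaphorin receptor NRP1 differed by 0.66 (adjusted p = 0.14 by limma) and the actin-capping gene CAPG by -0.33 (adjusted p = 0.241). Of 13 genes of interleukin-2 signalling 0 passed (median 0.03). There SOCS2, a suppressor of cytokine signalling, differed by 0.28 (adjusted p = 0.149) and the receptor chain IL2RB by 0.27 (adjusted p = 0.617). Of 13 ligands of the inhibitory receptors 0 passed and 10 were positive (median 0.19). CD86, the ligand shared by CD28 and CTLA-4, differed by 0.44 (adjusted p = 0.0627) and the lectin CLEC4G, a LAG-3 ligand in human and mouse, by 1.20 (adjusted p = 0.114). Of 18 other inhibitory receptors and exhaustion genes 0 passed (median 0.07; CD244 0.45 and SLAMF6 0.47), and of 19 activating counterparts 0 passed (median -0.03; ZAP70 0.28 and NFATC2 -0.22).

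Between baseline and larva, where 0 of 10 members were called, T cell and cytotoxic genes fell. Of 15 cytotoxic genes 9 fell (median -0.66), led by the activating receptor KLRK1 at -1.15 (adjusted p = 0.000112 by limma) and the transcription factor EOMES at -1.05 (adjusted p = 0.000313). Of 15 T cell genes 5 fell (median -0.33), among them CD8A at -0.78 (adjusted p = 0.00241) and CD3G at -0.48 (adjusted p = 0.0115). Of 18 other inhibitory receptors and exhaustion genes 2 fell, CD96 and CD244, both by -0.65 (adjusted p = 0.03 and 0.0303). CD244 is also among the 9 cytotoxic genes that fell. Without the arrays that stood apart, neither CD96 nor CD244 passed and 1 other of these 18 fell, CBLB by -0.33 (adjusted p = 0.0127). Of 19 activating counterparts 2 fell, the T cell receptor kinases ZAP70 at -0.61 (adjusted p = 0.00352) and LCK at -0.41 (adjusted p = 0.0197). Both are also among the 5 T cell genes that fell. Of 14 macrophage genes 2 fell, the sialic acid receptor SIGLEC1 at -1.18 (adjusted p = 0.0141) and MERTK at -0.29 (adjusted p = 0.0398). Of 13 stromal genes 4 rose, led by the endothelial VWF at 1.00 (adjusted p = 0.000458). Beside these, FOXP3 differed by -0.02 ± 0.12 (SE), CTLA4 by 0.04 ± 0.14 and IL2RA by 0.20 ± 0.13, none past the test. In the remaining 7 lists 0 genes passed with all arrays. Without the arrays that stood apart, 1 gene rose in 3 of them: PRDM1 by 0.47 (adjusted p = 0.022) among IL-10 producers, ENTPD1 by 0.38 (adjusted p = 0.0463) among other regulatory T cell genes, and FABP4 by 1.27 (adjusted p = 0.033) among the neighbouring tissues. T cell genes then had 6 falls in place of 5, and macrophage genes again 2, SIGLEC1 and LYZ. With all arrays, in adult minus baseline over the breeds 0 genes passed in all 13 lists.

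No pair of members passed a test of varying together within groups. After each group's mean was taken off, the 45 pairs of members had Pearson's r between -0.46 and 0.60 over 27 arrays, with a median of 0.15 and 29 above 0. By a two-sided permutation test within groups (100000 resamples), 0 of 45 pairs had an adjusted p under 0.05. The highest was CTLA4 with IL2RA (r = 0.60, rho = 0.42, permutation p = 0.016, adjusted p = 0.43), and r was 0.49 without the 2 arrays farthest from the median. IL10 and HAVCR2, which both rose, had r = -0.15 and rho = -0.09 (permutation p = 0.59, adjusted p = 0.73). IL10 and its receptor gene IL10RA had r = 0.30 and rho = 0.36 (permutation p = 0.11, adjusted p = 0.46).

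**Figure D5:**
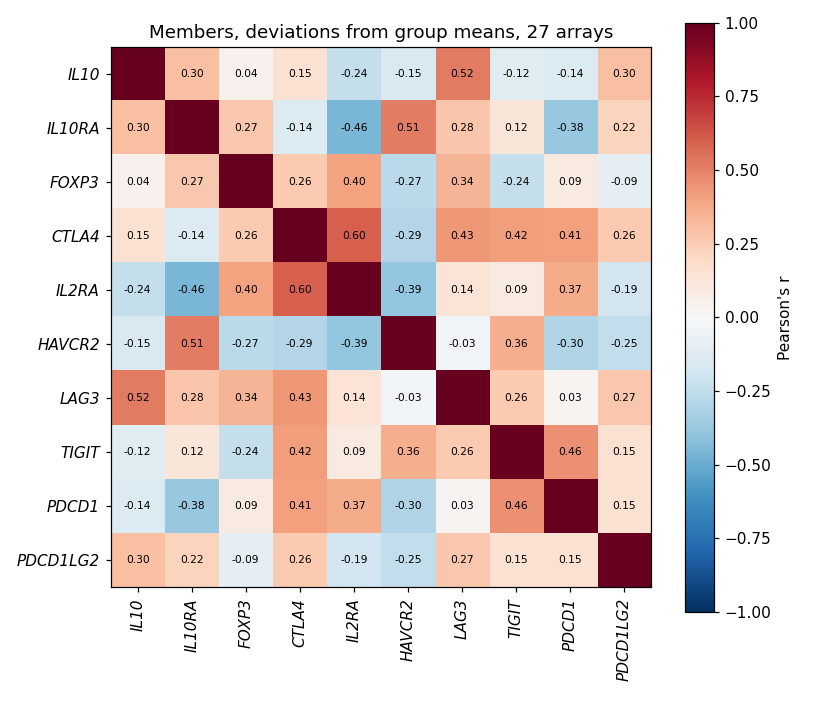
Pearson's r of each pair of the 10 genes over 27 arrays (both axes list the genes, colour and number give r), after the group means were taken off. The highest is CTLA4 with IL2RA at 0.60 and the lowest is IL10RA with IL2RA at -0.46.

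Over the 27 arrays, with group differences kept in, each member was set beside 13905 other named genes. The genes most like IL10 were DMBT1, a mucosal scavenger receptor (r = 0.82, rho = 0.73), and CCL8, a monocyte chemokine (r = 0.81, rho = 0.76). Those most like HAVCR2 were WSB1 (r = 0.86, rho = 0.86) and the apoptosis regulator CFLAR (r = 0.82, rho = 0.82), and those most like FOXP3 were TRIO (r = 0.84, rho = 0.74) and TRAF1 (r = 0.83, rho = 0.75). LAG3 was most like the immunoproteasome genes PSMB10 (r = 0.74) and PSME1 (r = 0.72). IL10RA was most like GPD1 (r = 0.78) and CYRIA (r = 0.77), TIGIT like BIRC6 (r = 0.75) and AGK (r = 0.69), and PDCD1 like MON1B (r = 0.71) and ISY1 (r = 0.70). CTLA4 was most like PLA2G5 (r = 0.76, rho = 0.52) and GAPDH (r = 0.76, rho = 0.43), and IL2RA like RHBDL2 (r = 0.71) and ECM1 (r = 0.69). For PDCD1LG2, the values for CRABP2 (r = 0.85, rho = 0.40) and MUC4 (r = 0.85, rho = 0.33) differ most between Pearson and Spearman. These are descriptions over arrays that share groups and a reference pool.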

How the data were processed

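Superficial cervical lymph node RNA was measured on 27 two-colour arrays. The deposited values are log2 ratios of sample and pool for 45220 probes, normalized by the authors. Per the submitters' processing notes they used limma; no source used here gives its version or the normalization steps. Array medians lay between -0.0095 and 0.0059 and SDs between 0.22 and 0.55. Signal over background is unknown, and the number of arrays limits the precision.

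Symbols came from the platform table, updated through the RefSeq gene table of ARS-UCD2.0 (12 of the 19 member probes by accession), and 14432 probes had none. Limma 3.58.1 in R 4.3.3 fitted 1 mean per group to all 27 arrays (18 residual degrees of freedom, prior 3.86), and the fit was checked on simulated data. Adult replicate 2 of each breed follows its title, since its description names both stages. The 10 members and the 13 other lists were chosen with earlier results of these data known. All members are named. In each other list up to 4 genes past the threshold are named by smallest p, or up to 2 where 0 passed, and for likeness the 2 highest r without provisional symbols. Alternatives covered scaling, array weights, probes, features, variance model, arrays in the fit, the replicate number as a block and each array left out. Leaving out the 2 arrays that stood apart was chosen after seeing the data. Same-numbered arrays of a breed had deviations from group means correlated between -0.30 and 0.181, with a median of 0.042 against -0.015 for other numbers. Of 27 arrays, 19 correlated best with their own number. No label says that numbers pair animals, so the main fit left them unpaired.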

Additional observations from a re-analysis of the deposited data

How the results depend on the processing

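For 73 single differences, 2572 recomputed values held 0 changes of sign. The 73 were members at an unadjusted p under 0.05 by limma and the named called genes of the other lists as the mean over breeds. Adult minus larva of IL10 in Bonsmara and Brahman and of HAVCR2 in Holstein Friesian was added whatever its p. Most of these differences were picked by their p in these data. Leaving out an array of a group not compared cannot alter an estimate, so the 0 is no measure of stability. Of the 2572 values, 190 fell back over the threshold of adjusted p, 7 newly passed it and 2375 did neither. The 190 came from 13 of the 73 differences. The 2375 include values of differences that were not called with all arrays and so had no call to lose. For adult minus larva over the breeds, 2 members were called, and 0 were with a trended, robust variance (IL10 adjusted p = 0.0516, HAVCR2 0.0525), 0 with the replicate block (0.0805 and 0.0779), 1 without the arrays that stood apart, and 0 to 2 with 1 array left out; IL10 adjusted p ran from 0.0109 to 0.0805 over the 8 other settings and HAVCR2 from 0.0124 to 0.0779. The replicate block changed no other count of members. Of 27 arrays, 19 correlated best with their own number. Among all features, 67 were called, against 171 with interquartile scaling, 253 with quantile normalization, 337 with array weights, 21 with the trended variance, 6 with the block, and 2 to 208 with 1 array left out (2 without Bonsmara adult 3, 208 without Brahman adult 1). For adult minus larva in Bonsmara, 1 member (HAVCR2) was called with interquartile scaling, quantile normalization and array weights, and 0 to 1 with 1 array left out. Larva minus baseline in Bonsmara called 1 (HAVCR2) with array weights, and adult minus larva in Holstein Friesian called 0 to 1, IL10 without adult 2 (1.52, adjusted p = 0.0474). The cause was not tested. Signal over background is unknown.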
